A study of Mus musculus with 2 samples.

Results

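The axon guidance ligands and receptors were the autosomal protein-coding genes of GENCODE M21 whose symbols belong to the semaphorins of classes 3 to 7, plexins, neuropilins, ephrins, Eph receptors, Slits, Robos, netrins, Unc5 receptors and Dcc. The symbol rule found 66 genes among 20807 autosomal protein-coding genes, 34 ligands and 32 receptors. Efnb1, Plxna3 and Plxnb3 match by name but lie outside the autosomes and were left out. Open chromatin was mapped by DNase-seq, which sequences the ends left where the nuclease DNase I has cut accessible DNA, so that open stretches appear as peaks and protected short stretches within them as footprints. The tissue was left cerebral cortex from male mice of the strain B6CASTF1/J, hybrids of a laboratory and a castaneus strain, aged 8 to 10 months and untreated as far as the labels say. There was 1 group of 2 libraries, labelled biological replicates 1 and 2, with no contrast between conditions, so no p-value was computed. The labels give both libraries 1 donor identifier but separate biosample identifiers, so how far the spread between them covers variation between animals is not known.

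Axon guidance molecules steer growing axons and migrating cells by attraction or repulsion. Semaphorins act through plexins, and the secreted class 3 semaphorins usually need a neuropilin as co-receptor. Ephrins bind Eph receptor tyrosine kinases on neighbouring cells, with signalling in both directions. Slits repel through Robo receptors, and netrins attract through Dcc and repel through Unc5 receptors. In the adult cortex many of these proteins remain at synapses, in glia and in blood vessels.

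Of the 66 guidance genes, 47 (71.2%) had a narrow peak at a promoter in both libraries, against 56% of all autosomal protein-coding genes. Narrow peaks are those of the stricter deposited list, and a promoter here reaches 1000 bp up- and downstream of each annotated transcript start. The promoter peaks ranged from those of Efnb2 and Ephb3, an ephrin and an Eph receptor among the strongest promoters of the set, down to those of Sema3e and Sema5b. Netrins stood at the other end, since 0 of the 4 had a narrow promoter peak in both libraries. The peaks of the guidance genes were weaker than those of genes at large, with a median strength of 1.83 in replicate 1 and 1.65 in replicate 2, against 2.73 in replicate 1 and 2.38 in replicate 2 for all genes. Strength is the signal value the authors deposited with each peak, on a linear scale whose normalization is not given. In what follows a pair of values without labels is that of replicate 1 and then replicate 2.

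The sequences of 8 stretches carry much of what follows, and they are shown from the GRCm38 (mm10) reference of RefSeq, which is not the hybrid animals' own sequence. Each runs 5′ to 3′ on the strand of its gene, and capitals mark bases that lay inside a footprint of both libraries. The peaks of Efnb2 at chr8:8661181-8661440 (minus strand) and Ephb3 at chr16:21204491-21204790 (plus strand) are shown as the strongest promoters of the set, the Ephb3 stretch being the middle 300 bases of a wider peak. Those of Sema5a at chr15:32246081-32246280 (plus strand), Sema3b at chr9:107602121-107602320 (minus strand), Robo3 at chr9:37430661-37430860 (minus strand) and Efna1 at chr3:89282085-89282202 (minus strand) are shown because the strongest peak lay away from the gene's own 5′ end. The Sema3a peak at chr5:13399322-13399440 (plus strand) is a weak internal promoter, and the RefSeq promoter window of Epha8 at chr4:136956767-136957066 (minus strand) is GC-rich with no narrow peak.
Efnb2: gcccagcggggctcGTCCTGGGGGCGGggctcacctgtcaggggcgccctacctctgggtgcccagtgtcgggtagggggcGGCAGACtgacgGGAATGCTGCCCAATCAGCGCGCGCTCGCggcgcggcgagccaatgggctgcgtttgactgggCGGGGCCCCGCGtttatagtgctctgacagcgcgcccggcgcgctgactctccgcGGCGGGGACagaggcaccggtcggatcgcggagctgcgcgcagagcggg
Ephb3: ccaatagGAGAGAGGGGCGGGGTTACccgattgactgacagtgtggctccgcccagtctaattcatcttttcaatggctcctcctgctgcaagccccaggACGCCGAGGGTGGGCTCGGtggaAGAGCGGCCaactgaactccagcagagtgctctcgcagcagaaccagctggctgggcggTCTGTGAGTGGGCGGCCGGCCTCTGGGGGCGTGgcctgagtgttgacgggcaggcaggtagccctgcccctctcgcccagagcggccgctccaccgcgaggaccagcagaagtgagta
Sema5a: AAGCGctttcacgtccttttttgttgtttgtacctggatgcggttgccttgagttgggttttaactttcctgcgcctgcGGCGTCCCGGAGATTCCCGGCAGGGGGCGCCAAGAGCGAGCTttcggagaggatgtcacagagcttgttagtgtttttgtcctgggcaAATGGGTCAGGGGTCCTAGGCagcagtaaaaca
Sema3b: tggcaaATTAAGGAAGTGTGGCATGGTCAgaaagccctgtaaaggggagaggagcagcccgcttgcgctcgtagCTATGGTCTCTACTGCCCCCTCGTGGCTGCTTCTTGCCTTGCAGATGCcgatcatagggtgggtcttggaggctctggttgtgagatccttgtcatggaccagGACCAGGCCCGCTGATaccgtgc
Robo3: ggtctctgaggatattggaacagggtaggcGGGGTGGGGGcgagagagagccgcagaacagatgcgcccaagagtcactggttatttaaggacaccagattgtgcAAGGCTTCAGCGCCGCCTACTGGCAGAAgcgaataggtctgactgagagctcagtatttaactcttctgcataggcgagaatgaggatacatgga
Efna1: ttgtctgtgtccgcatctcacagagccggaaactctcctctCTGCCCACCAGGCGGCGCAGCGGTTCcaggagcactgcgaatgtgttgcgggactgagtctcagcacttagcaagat
Sema3a: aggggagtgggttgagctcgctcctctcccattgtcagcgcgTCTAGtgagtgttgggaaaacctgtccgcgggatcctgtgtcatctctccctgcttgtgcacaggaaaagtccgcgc
Epha8: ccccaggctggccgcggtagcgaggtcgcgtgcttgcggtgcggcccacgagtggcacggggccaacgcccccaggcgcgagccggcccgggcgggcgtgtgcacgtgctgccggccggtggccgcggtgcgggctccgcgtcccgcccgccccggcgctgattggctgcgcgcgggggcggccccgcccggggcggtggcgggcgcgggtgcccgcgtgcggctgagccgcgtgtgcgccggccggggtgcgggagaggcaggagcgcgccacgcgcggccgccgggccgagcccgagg

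In the Efnb2 stretch 70 of 260 bases lay in footprints of both libraries, in the Ephb3 stretch 80 of 300, and in the Sema3b stretch 87 of 200. The Sema3a stretch had 5 such bases of 119, and the Epha8 window had 0 of 300. Among these stretches the strong peaks held protected bases seen in both libraries, while the weak peak and the window without a narrow peak held few or none. The stretches were picked for strong, weak or absent peaks, so they cannot show whether this holds over the set. The Sp/KLF letters GGGCGG, searched on both strands with overlapping matches counted once per sequence, were present in the Efnb2, Ephb3 and Epha8 stretches. A longer CTCF pattern of 12 letters was added after these sequences had been seen, and it matched the peaks of Sema3b, Sema5a, Robo3 and Efna1 in both libraries, each time with the centre of the match inside a footprint. CTCF is a zinc finger protein that holds chromatin loops and boundaries. Over all 47 guidance genes with promoter peaks in both libraries the strongest peak held the pattern in both for 5 (10.6%), the fifth being Plxna1, a receptor subunit for secreted semaphorins, against 8.54% of 11656 genes at large. In replicate 1 the pattern was in the strongest peak of 7 of the 47 guidance genes and in replicate 2 of 5, all with a centre in a footprint. Over all genes it was centred in a footprint for 731 of 1182 in replicate 1 and for 714 of 1179 in replicate 2. Sema3b, Sema5a, Robo3 and Efna1 had been seen before the pattern was chosen. The comparison therefore cannot tell whether guidance genes differ from genes at large. A match is a description of letters and not a measured binding site.

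The tissue label was compared with defining genes of cell types. Of 5 markers of excitatory neurons 4 had promoter peaks in both libraries, against 0 of 3 for inhibitory neurons, 2 of 4 for astrocytes, 1 of 3 for oligodendrocytes, 0 of 3 for microglia and 0 of 3 for endothelium. Markers of liver (0 of 3), heart (0 of 2) and erythroid cells (0 of 3) had none, and 1 of 2 muscle markers, Ckm, had one. Replicate 1 held 40705 narrow peaks and 166128 footprints, and replicate 2 held 39508 narrow peaks and 174394 footprints. A bulk measurement cannot separate fewer cells of a type from lower accessibility in each cell. Read totals were not used here.

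A narrow promoter peak was found in 1 library only for 7 guidance genes (10.6%), against 4.21% of all genes, and in neither library for 12 (18.2%), against 39.8%. In the broader deposited list 57 of 66 (86.4%) had promoter peaks in both libraries, against 62% of all genes. Ligands had a narrow promoter peak in both libraries for 21 of 34 genes, and receptors for 26 of 32.

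Guidance genes were long, with a median of 62.8 kb against 17.6 kb for all genes, and the share with a promoter peak followed gene length. Among genes under 50 kb, 17 of 32 guidance genes (53.1%) had promoter peaks in both, against 50.1% of all genes of that length. From 50 kb to under 200 kb the count was 12 of 16 (75%), against 74.3%, and at 200 kb and over it was 18 of 18 (100%), against 82.5%. Below 200 kb the share of guidance genes was therefore close to that of genes of like length, and above it higher. The 18 long genes include Dcc, Robo1, Robo2, Slit2, Slit3, Unc5c, Unc5d, Epha3, Epha5, Epha6, Ephb1, Efna5, Plxna4, Sema3a, Sema3d, Sema3e, Sema5a and Sema6d.

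**Figure D1:**
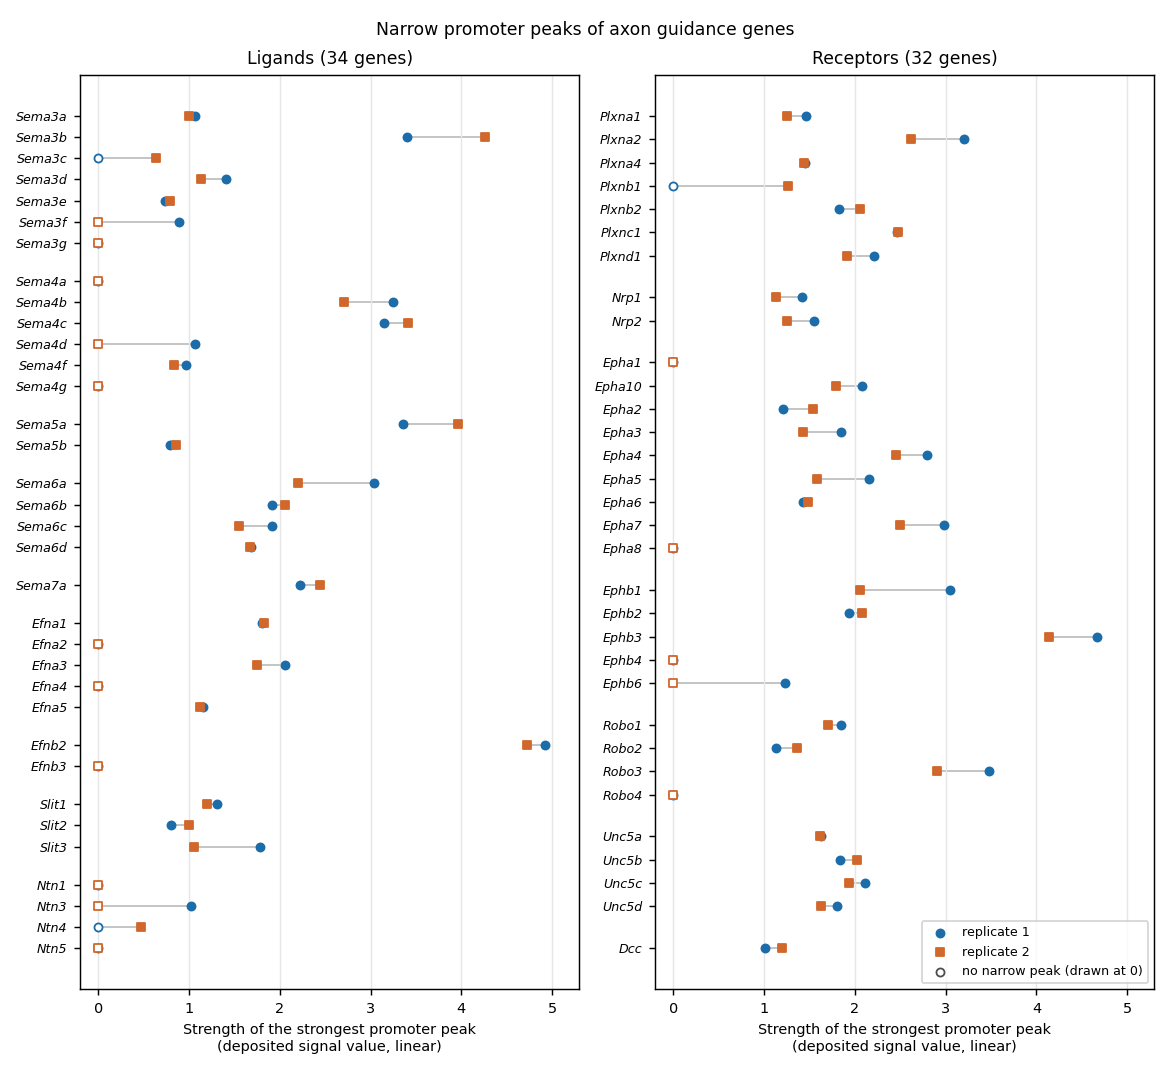
Strength of the strongest narrow promoter peak (deposited signal value, linear) for the 34 ligands and 32 receptors, with circles for replicate 1 and squares for replicate 2; open symbols at 0 have no narrow peak, and where both are open the square covers the circle. Efnb2 lay at 4.92 and 4.72 and Ephb3 at 4.66 and 4.14, while 12 genes have open symbols for both libraries.

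Among the class 3 semaphorins, secreted repellents that bind neuropilins, 4 of 7 had promoter peaks in both libraries. Sema3b had a strength of 3.40 in replicate 1 and 4.26 in replicate 2, in a peak at starts of noncoding transcripts 7063 bp and 7923 bp inside the gene. That peak is the Sema3b sequence shown, and it lay above the median of all genes with a promoter peak in both libraries. Sema3d followed with 1.40 and 1.13, and Sema3a, which repels cortical axons, had 1.06 and 1.00 at a coding start 273274 bp inside the gene. Sema3e, the class 3 member that can bind plexin D1 directly, had 0.74 and 0.79, which placed it at percentiles 3.74 and 5.25 of genes with a promoter peak. Sema3c had a narrow peak in replicate 2 alone (0.64), with a broader-list peak of 0.49 in replicate 1. Sema3f had one in replicate 1 alone (0.89), with a broader-list peak of 0.88 in replicate 2. Sema3g had none in either list. In a window of the gene with 10 kb added at each end, Sema3b and Sema3f had the most narrow peaks in the library with fewer, 4 and 3 for Sema3b and 6 and 3 for Sema3f.

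The class 4 semaphorins, which span the membrane, ranged from strong promoter peaks to none. Sema4c had a strength of 3.15 in replicate 1 and 3.42 in replicate 2, and Sema4b had 3.25 and 2.70. Sema4f was weak, with 0.96 and 0.83 at its 5′ end. In replicate 1 its strongest peak, of 0.97, was at a start without a coding transcript 22183 bp inside the gene. Sema4d, the ligand of plexin B1, had a narrow peak of 1.06 in replicate 1 only, at a start without a coding transcript 16636 bp inside the gene. Sema4a had broader-list peaks alone (1.04 and 0.75), and Sema4g had none in either list. Sema4b held 4 narrow peaks in each library and Sema4c held 4 and 6.

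The remaining transmembrane semaphorins, of classes 5 and 6, and the lipid-anchored Sema7a all had promoter peaks in both libraries. The strongest peak counted for Sema5a had a strength of 3.36 in replicate 1 and 3.96 in replicate 2, but its midpoint lay 1077 bp from the nearest start, inside the gene. At the 5′ end of Sema5a itself the peaks reached 0.65 and 0.84. Its promoter was therefore weak, and the strong element just inside the gene is the Sema5a sequence shown. Sema5b had 0.79 and 0.85, with 5 narrow peaks in each library. Sema6a, a class 6 semaphorin that signals to class A plexins, had 3.03 and 2.20. Sema6b had 1.91 and 2.06, and Sema6c had 1.91 and 1.55. Sema6d had 1.68 and 1.67 at a coding start 520137 bp inside the gene and 0.86 and 0.92 at its 5′ end, so that its internal start was the stronger in both libraries. Sema7a, a ligand of plexin C1 and integrins, had 2.22 and 2.44, with 3 narrow peaks in each library.

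**Figure D2:**
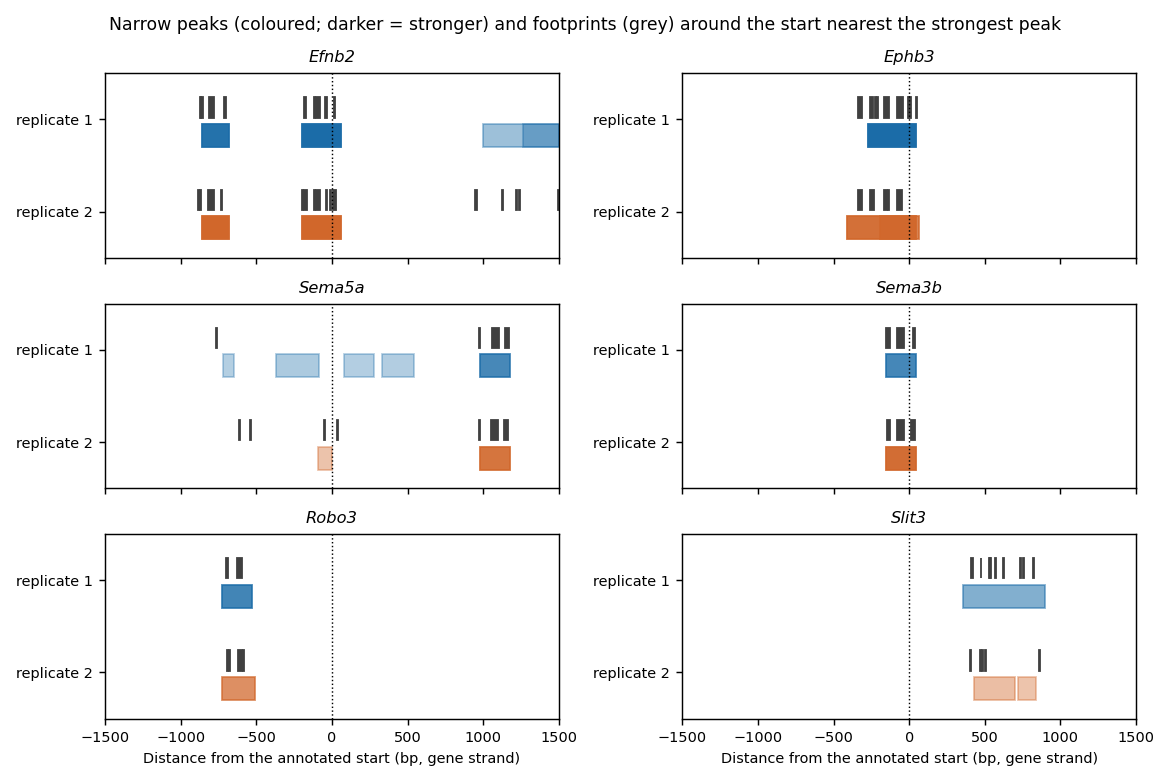
Narrow peaks (blue for replicate 1 and orange for replicate 2, darker where stronger) and footprints (grey ticks) around the annotated start nearest the strongest promoter peak, by distance along the gene's strand. A strong peak of Efnb2, Ephb3 and Sema3b covers the start in both libraries, and Efnb2 has a second one upstream. The midpoint of the strong Sema5a peak lies 1077 bp downstream of the nearest start, and the Slit3 peak is split in replicate 2.

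Every plexin except Plxnb1 had a promoter peak in both libraries, 6 of 7 genes. Plxna2 had the strongest, with 3.20 in replicate 1 and 2.62 in replicate 2, at a coding start 1607 bp from the gene's 5′ end. Plxnc1 had 2.46 and 2.47 at an internal start of a noncoding transcript, 115289 bp inside the gene, against 1.10 and 1.05 at its own 5′ end. Plxnd1, known for vessel and synapse patterning, had 2.21 and 1.92. Plxnb2 had 1.83 and 2.06 near a start 10100 bp inside the gene, in a peak whose midpoint lay 1009 and 1038 bp from that start. Its 5′ end had a peak in replicate 1 only (1.497). Plxna1 had 1.46 and 1.25, and Plxna4 had 1.45 and 1.44. Plxnb1, the Sema4d receptor, had a narrow peak of 1.26 in replicate 2 and a broader-list peak of 1.21 in replicate 1. The strengths were close, but the lowest false discovery rate at its promoters was 0.0123 in replicate 1 and 3.83e-12 in replicate 2. Plxna4 held 9 narrow peaks in replicate 1 and 7 in replicate 2, and Plxnc1 held 8 and 7.

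Both neuropilins, the co-receptors that bind class 3 semaphorins, had modest promoter peaks. Nrp1 had 1.42 in replicate 1 and 1.13 in replicate 2, and Nrp2 had 1.54 and 1.25. Nrp1 held 8 narrow peaks in each library, among the highest counts of the set.

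Of the Eph receptors, 10 of 14 had a promoter peak in both libraries. EphA receptors mostly bind the lipid-anchored ephrin-A ligands, and EphB receptors the transmembrane ephrin-B ligands. Epha7 had a strength of 2.99 in replicate 1 and 2.50 in replicate 2. Epha4, which also binds ephrin-B ligands and acts in neurons and astrocytes, had 2.80 and 2.45. Epha10, a member without kinase activity, had 2.08 and 1.80. These had the highest mean strengths of the EphA group. Epha5 had 2.15 and 1.58, followed by Epha3 with 1.85 and 1.43. Epha6 had 1.43 and 1.48, and Epha2, better known from epithelia, had 1.20 and 1.54. Epha6 held 6 narrow peaks in each library, the most of the EphA genes. Epha1 had no promoter peak in either list, and Epha8 had broader-list peaks only, of 0.56 and 0.46.

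Ephb3 had the strongest promoter among receptors, with 4.66 in replicate 1 and 4.14 in replicate 2, at percentiles 85.4 and 88.1 of genes with a promoter peak. Ephb1 had 3.05 and 2.06, and Ephb2, a receptor found at excitatory synapses, had 1.93 and 2.07. Ephb6, another receptor without kinase activity, had a narrow peak of 1.23 in replicate 1 and a broader-list peak of 1.14 in replicate 2. Ephb4, known from veins, had broader-list peaks only, of 0.64 and 0.52. Among genes known from blood vessels, Ephb4 and Robo4 had no narrow promoter peak, while Efnb2, Plxnd1 and Unc5b had one in both libraries. For the 3 endothelial markers the count with promoter peaks in both was 0, and the part of cell composition in these values was not tested.

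Among ephrins, 4 of 7 had promoter peaks in both libraries. Efnb2, a transmembrane ligand known from arteries and synapses, had 4.92 in replicate 1 and 4.72 in replicate 2 (mean 4.82 ± 0.139, SD, n = 2), the highest mean of all 66 genes, at percentiles 88.1 and 93.7. In replicate 2 the strongest of its promoter peaks was a second one with its midpoint 768 bp from the start, nearer a start of the noncoding gene 4921522P10Rik. The stretch shown had 4.60 in replicate 2, so the mean and SD combine different peaks. Efna3, a lipid-anchored ligand, had 2.06 and 1.75. Its neighbour and relative Efna1 had 1.80 and 1.82 in a peak with its midpoint 1001 bp from the start. Efna5, which takes part in patterning cortical maps, had 1.16 and 1.12. The ephrin-A genes with a peak thus lay below the median of all genes. Efna2 and Efna4 had no promoter peak in either list, and Efnb3 had a broader-list peak in replicate 1 only (0.85). The ephrins thus ranged over the whole scale of the set.

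All 3 Slits had promoter peaks in both libraries, all weaker than the median of all genes. Slit1 had 1.31 in replicate 1 and 1.20 in replicate 2. Slit2, which with Slit1 keeps axons from crossing the midline, had 0.81 and 1.00. Slit3 had 1.78 and 1.06 at a noncoding start 56559 bp inside the gene and no narrow peak at its 5′ end. Slit1 and Slit3 had the most narrow peaks of the Slits, 6 and 7 for Slit1 and 6 and 8 for Slit3. Of their receptors, Robo3, which is known for midline crossing, had 3.48 and 2.91 at a coding start 3112 bp inside the gene. Robo1 had 1.85 and 1.70 at a coding start 354843 bp inside the gene and 0.60 and 0.65 at its 5′ end. Robo2 had 1.13 and 1.36. Robo1 held 7 and 8 narrow peaks, the most of the Robo genes. Robo4, a vascular member, had no promoter peak in either list.

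Netrins had the fewest promoter peaks. Ntn1, the attractant first studied at the neural tube floor, had no narrow peak in either library and a broader-list peak of 0.47 in replicate 2 only. Ntn5 had a broader-list peak of 1.07 in replicate 2 only, and yet it held 5 narrow peaks in each library across its window. Ntn3 had a narrow peak of 1.02 in replicate 1 and a broader-list peak of 0.87 in replicate 2. Ntn4, a netrin of basement membranes, had a narrow peak of 0.47 in replicate 2 and a broader-list peak of 0.58 in replicate 1. All 5 netrin receptors, by contrast, had promoter peaks in both libraries. Unc5c had 2.11 in replicate 1 and 1.94 in replicate 2. Unc5b, which also guides vessels, had 1.84 and 2.02. The remaining repulsive receptors were close behind, Unc5d with 1.80 and 1.63 and Unc5a with 1.63 and 1.61. Dcc, the attractive receptor, had 1.01 and 1.19 in a gene of 1097 kb. Unc5b held 6 and 7 narrow peaks, the most among netrin receptors.

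**Figure D3:**
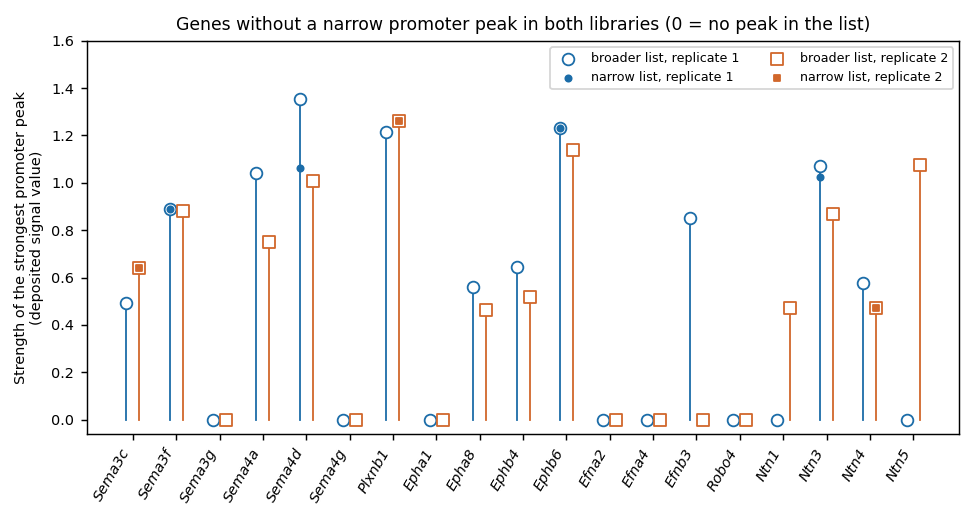
Strength of the strongest promoter peak (deposited signal value) for the 19 guidance genes without a narrow promoter peak in both libraries, with open symbols for the broader list, filled symbols for the narrow list, circles for replicate 1 and squares for replicate 2. The 7 genes with a narrow peak in 1 library have a broader-list peak in both, and Sema3g, Sema4g, Epha1, Efna2, Efna4 and Robo4 stay at 0.

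The 7 genes with a narrow promoter peak in 1 library, Sema3c, Sema3f, Sema4d, Plxnb1, Ephb6, Ntn3 and Ntn4, each had a broader-list peak in both libraries. Among the 12 without a narrow peak in either library, 6 had no interval in the authors' table of FDR values below 0.05 at any promoter, namely Sema3g, Sema4g, Epha1, Efna2, Efna4 and Robo4. An FDR is a false discovery rate, the share of calls expected to be false. The other 6 had such an interval in 1 or both libraries, among them Epha8, whose lowest promoter FDR was 0.00327 in replicate 1 and 0.0301 in replicate 2. For those genes some accessibility was therefore listed, whereas none was detectable at this depth for the 6 named before.

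Many starts were annotated and few carried a peak. The counts of starts were made for guidance genes alone, so they give no comparison with genes at large. Starts of 1 gene within 500 bp of each other were joined, which left 211 starts in the 66 genes, of which 56 had a narrow peak in both libraries. A peak in both libraries stood at more than 1 start in 9 genes. In 6 of these, Sema4b, Sema6d, Plxnc1, Epha7, Efna1 and Robo1, the strongest peaks at the starts were different ones, and in Sema3b, Sema4c and Epha3 neighbouring starts had the same peak. In Sema3a, Sema3b, Slit3 and Robo3 the gene's 5′ end had a narrow peak in neither library, while a start inside the gene had one in both. In Plxna2 and Plxnb2 the 5′ end had one in replicate 1 only. None of the 47 strongest promoter peaks (0%) lay within 1000 bp of a start of another protein-coding gene, against 21.9% among all genes with promoter peaks in both libraries. In a comparison added after these values were seen, the 9101 genes at large without such a neighbour had median strengths of 2.58 in replicate 1 and 2.26 in replicate 2, and the guidance genes had 1.85 and 1.70. The medians of guidance genes were thus lower here too. Starts of noncoding genes were left out of this comparison, and the part of shared promoters in strength was not tested. A noncoding gene's start lay within 1000 bp of the strongest peak in both libraries for Sema4c, Nrp1, Epha4, Epha6, Efnb2 and Unc5c. It was the start nearest the peak in both libraries for Epha6, and in replicate 2 for Efnb2.

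The difference in strength was present in each length class. Under 50 kb the medians of guidance genes were 1.99 and 1.99 in replicates 1 and 2, against 2.92 and 2.53 for all genes. From 50 kb to under 200 kb they were 1.84 and 1.81, against 2.42 and 2.15. At 200 kb and over they were 1.56 and 1.43, against 1.72 and 1.63, so that the gap was narrowest among long genes. Over all lengths the mean of the medians of guidance genes was 1.74 ± 0.128, against 2.55 ± 0.248 (SD, n = 2 libraries each).

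The libraries ranked the guidance promoters alike. Across the 47 genes with promoter peaks in both, the log2 strengths had a Pearson correlation of 0.928 and a Spearman correlation of 0.934. Over 11656 genes at large the values were 0.946 and 0.943. These are correlations across genes, which are not independent replicates and share each library's depth and scaling. The strongest peak was not always the same one in both libraries, as in Efnb2, Sema4f, Sema5b and Efna5. Strength was higher in replicate 1 for 30 genes and in replicate 2 for 17, with a median ratio of replicate 2 to replicate 1 of 0.922, against 0.888 for all genes. The largest ratios apart from 1 belonged to Slit3 (0.592), Ephb1 (0.673), Sema6a (0.727), Epha5 (0.736) and Epha3 (0.771), all stronger in replicate 1.

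Peak numbers in these windows of the gene plus 10 kb at each end also differed between the libraries. The windows of the 66 genes held 236 narrow peaks in replicate 1 and 252 in replicate 2, and 461 and 462 peaks of the broader list. Efna5 had 8 narrow peaks in replicate 1 and 14 in replicate 2, the largest difference. Ntn3 had 8 and 3, Plxnb1 had 1 and 5, and Sema6d had 4 and 8. Then came Epha3 and Robo2 with 2 and 5 each, and Nrp2 and Sema3f with 6 and 3 each. In the broader list Sema6d had 14 peaks in each library and Robo2 had 5 in each, although Robo2 held 14 footprints in replicate 1 and 26 in replicate 2. Ntn3 (10 and 4), Plxnb1 (3 and 10), Epha3 (4 and 8) and Sema3f (10 and 5) differed in the broader list too. Ephb2 had 9 narrow peaks in each library and was the highest in the library with fewer.

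Of the narrow peaks in these windows, 168 of 236 (71.2%) in replicate 1 and 170 of 252 (67.5%) in replicate 2 overlapped a narrow peak of the other library by at least 1 bp. The shares over all autosomal narrow peaks were 76.4% and 78.5%. Windows of Efna3 and Efna4, and of Robo3 and Robo4, overlap. Peaks there count for both genes in values per gene and by place, but once in the totals of 236 and 252.

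Peak density, the number of narrow peaks per 10 kb of window, had a median of 0.304 and 0.297 over guidance genes, against 0.315 and 0.307 over all genes. For the broader list the medians were 0.552 and 0.636, against 0.475 and 0.480, and for footprints 1.54 and 1.75, against 1.33 and 1.39. Among genes of 200 kb and over the guidance genes had 0.0905 and 0.104 narrow peaks per 10 kb, against 0.126 and 0.117 for all genes of that length. Under 50 kb the order was the other way, with 0.611 and 0.566 against 0.374 and 0.367. At least 1 narrow peak stood in the window in both libraries for 59 of 66 genes (89.4%), against 71.9% of all genes, and a footprint in both for all 66 (100%), against 76%. The part of window length in these shares was not tested.

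**Figure D4:**
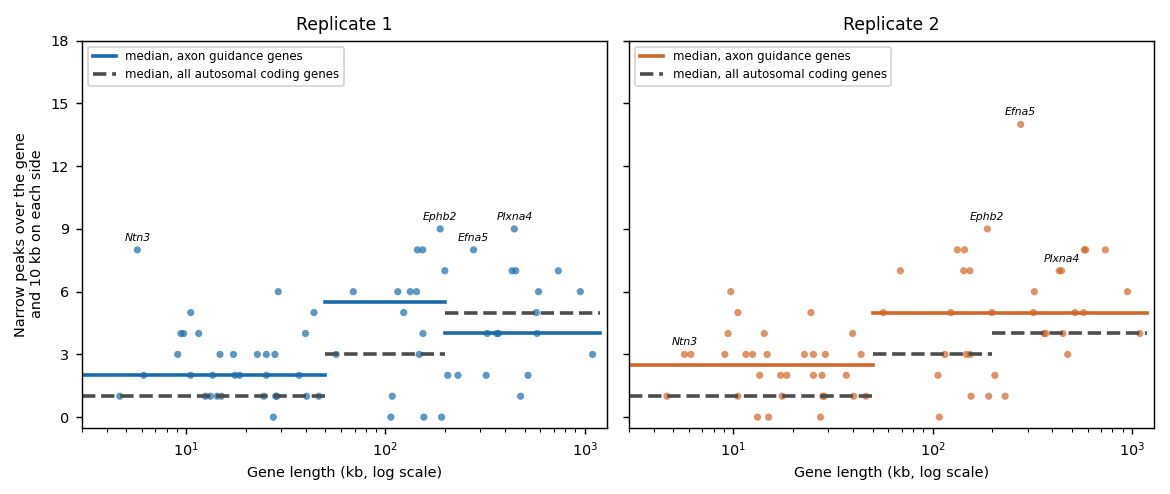
Narrow peaks in the window of each guidance gene against gene length (kb, log scale), with 1 panel per library; solid lines are medians of guidance genes and dashed lines medians of all autosomal protein-coding genes in 3 length classes. The solid line lies above the dashed line below 200 kb in both libraries, and Efna5 stands out with 14 peaks in replicate 2 and 8 in replicate 1.

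Away from starts the same genes carried further open elements. By midpoint, 51.1% of the peaks in these windows in replicate 1 and 53.6% in replicate 2 lay within 1000 bp of an annotated start of any gene, against 50.1% and 53.7% of all autosomal narrow peaks. A further 74 and 72 lay in introns, 9 and 6 in exons and 33 and 39 in the flanks. Of the distal peaks of replicate 1, 73 overlapped a narrow peak of replicate 2, 41 in introns, 5 in exons and 27 in flanks, at 40 of the 66 genes. Some of them met the same replicate 2 peak, as at Efnb3 and Sema3b, so 73 is not a count of separate elements. The same count was not made for all genes. Ephb2 held 7 of the shared distal peaks, from 8 distal peaks in each library. The shared distal peaks also include the strongest promoter peaks of Sema5a, Plxnb2 and Efna1. Those overlapped a promoter, but their midpoints lay over 1000 bp from every start. An intron peak of Ephb2 at chr4:136678541-136678740, 157 kb inside the gene, had a strength of 3.004 in replicate 1 and 4.24 in replicate 2, above the promoter of the gene at 1.93 and 2.07.

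The strongest distal peak shared by the libraries lay upstream of Sema3b, 3217 bp from the nearest annotated start, at chr9:107612701-107612960, with 4.58 in replicate 1 and 4.59 in replicate 2. A peak upstream of Epha4, 1140 bp from the nearest start, at chr1:77516341-77516500 had 3.94 and 4.53, and it lies over the annotated gene Gm28386. A peak upstream of Sema4a, 6158 bp from the nearest start, at chr3:88467241-88467440 had 2.76 and 2.82, although the Sema4a promoter itself had no narrow peak. An intron peak of Slit1 at chr19:41656061-41656280, 87.5 kb inside the gene, had 2.03 and 2.60, above its promoter at 1.31 and 1.20. An intron peak of Efna5 at chr17:62784061-62784240, 97.2 kb inside the gene, had 1.89 and 2.11, against 1.16 and 1.12 at its promoter. Both a promoter peak and a shared distal peak were counted for 33 genes, but for Plxnb2 and Efna1 they were the same peak. A shared distal peak was stronger than the promoter in both libraries for 11 of the 33 genes. They were Sema3b, Sema4f, Sema5b, Plxna4, Nrp1, Epha4, Ephb2, Efna3, Efna5, Slit1 and Unc5b. These counts were not made for all genes, so they give no comparison with genes at large. Which gene a distal peak acts on was not tested.

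Within promoter peaks the guidance genes held 287 footprints in replicate 1 and 361 in replicate 2, or 11.0 and 10.7 per kb of peak, against 13.0 and 12.6 per kb for all genes. Of these 46.3% and 37.7% overlapped a footprint of the other library, against 59.3% and 54.8%. The letters GGGCGG were centred in 8.36% and 6.37% of the footprints, against 12.9% and 11.4% for all genes. The CTCF core CNAGGNGGC was centred in 2.09% and 1.39%, against 1.59% and 1.5%. Promoter strength was lower for guidance genes as well, and its part in these footprint values was not tested.

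RefSeq promoter windows, from 250 bp before to 50 bp after a start, were matched for 56 of the 66 genes, 72 windows in all. Sema3b, Sema3f, Sema6a, Plxna1, Plxna4, Efnb3, Slit1, Ntn1, Unc5d and Dcc were not matched. The 35 windows with a narrow peak in both libraries had a median GC content of 65%, against 62.7% for 8999 such windows of all genes, and a median ratio of observed to expected CpG of 0.690, against 0.815. The 31 windows with a narrow peak in neither library had a median GC content of 61.3%, against 50% for 9122 windows of all genes, and a CpG ratio of 0.476, against 0.241. GGGCGG on either strand, with overlapping matches allowed, was present in 21 of those 31 (67.7%), against 24.9%. Guidance windows without a narrow peak thus had more GC and CpG than such windows at large. Epha8 was the extreme, with 84.3% GC and a CpG ratio of 1.06 in the window shown. The 31 windows came from 26 genes, some of which had a narrow promoter peak elsewhere, as in Slit3, Robo3 and Efna1. The NRF1 letters GCGCATGC were in 0 of the 35 windows with a peak, against 6.79% of such windows at large.

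Pathway genes outside the symbol rule were described in 2 lists. Of 36 further guidance cues and receptors found by symbol (of 38 listed), among them Neo1, a receptor for netrins and RGM proteins, and the secreted cues Shh and Wnt5a, 26 had a narrow promoter peak in both libraries, 4 in 1 library and 6 in neither. Of 51 intracellular effectors found (of 52 listed), such as Cdc42 and Rac1, small GTPases that reshape actin, and Nck1, an adaptor, 48 had one in both libraries. The share over all genes was 56%. Median gene lengths were 84.0 kb for the cues and receptors and 112 kb for the effectors, against 17.6 kb for all genes. The part of length in the counts was not tested. Over genes with promoter peaks in both libraries, the median strengths were 1.57 and 1.49 for the cues and receptors. They were 2.39 and 2.03 for the effectors, and 1.85 and 1.70 for the 47 genes of the symbol rule.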

How the data were processed

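DNase-seq peaks, footprints and FDR values were deposited per library in mm10 coordinates; no aligner or peak caller is given in the sources used here. Peaks were called on each library alone, per the deposited notes. The authors deposited 2 peak lists per library, each peak with a signal value, called strength here, which was compared without further scaling. All strengths were whole multiples of 1 step per library, 0.00948 in replicate 1 and 0.00926 in replicate 2 (tolerance 0.02 of a step). The authors also deposited FDR q-values for short intervals, of which values under 0.05 are listed. Every peak of the smaller list, called narrow, held an interval at 0.001 or less. Footprints were used as intervals only.

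Genes and starts came from GENCODE M21 and sequence from RefSeq GRCm38, and 19174 of 19174 RefSeq promoter windows equalled the genome sequence at their coordinates. A promoter peak overlapped 1000 bp on either side of any transcript start of the gene by at least 1 bp, and its strength was the highest value there. Density counted midpoints per 10 kb in a window of the gene with 10 kb added at each end. Peaks of the same list can overlap each other, and each was counted. Footprints were assigned to promoter peaks by midpoint. Distal peaks had midpoints over 1000 bp from every annotated start. Motifs were searched on both strands. Python 3.11.15, numpy 2.4.6 and pysam 0.24.0 were used, and the counting was tested on simulated data.

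The genes and lists were chosen with earlier results of these data known. In each subfamily the text names every gene with a promoter peak in 1 library or neither, the 3 with the strongest mean promoter strength and the one with the most narrow peaks in the library with fewer. Over all genes it names the 5 with the largest differences between the libraries in promoter strength and in peak count, with ties. Other genes are named as description. The SD over 2 libraries is a rough estimate of spread. Alternatives were another peak list, other promoter widths and flanks, joined peaks, the strongest 50% of peaks, the 5′ end alone and each library alone.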

Additional observations from a re-analysis of the deposited data

How the results depend on the processing

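The count of 47 guidance genes with a promoter peak in both libraries stayed within 35 to 57 across all alternatives, and it was 50 and 51 with 1 library alone. Its lead over all genes was narrowest for the strongest 50% of narrow peaks, 53% against 48.4%, and widest in the broader list, 86.4% against 62%. The median peak density of 0.301 per 10 kb (mean of the libraries, 0.311 for all genes) depended most on the definition. It was 0.594 in the broader list (0.477 for all genes), 0.252 with peaks within 200 bp joined (0.281), 0.113 over the gene alone (0.0401), 0.270 with 50 kb on each side (0.290), 0.144 for the strongest 50% of narrow peaks (0.176) and 0.0946 for peaks away from starts (0 for all genes). Density in guidance genes was therefore above that of all genes in the broader list, over the gene alone and away from starts, and below it otherwise. The median footprint density of 1.64 was 0.725 over the gene alone (0.685 for all genes) and 0.748 for footprints inside narrow peaks (0.877), where the order turned round. The median promoter strength of 1.74 was 1.56 at the 5′ end alone (2.57 for all genes). The share of peaks found in the other library, 69.3%, was 60.4% when at least 50% of the peak had to be shared (68.6% for all peaks). With 1 library alone the ranges were 0.297 to 0.304 for peak density, 1.54 to 1.75 for footprint density, 1.65 to 1.83 for strength and 67.5% to 71.2% for sharing. The cause of these differences was not tested. No paired analysis was possible because there was 1 group. Depth is unknown, so a gene without a peak may have had accessibility that was not detectable, and 2 libraries with a shared donor identifier give a rough spread.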
